A study of Mus musculus with 6 samples.

Results

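The 4 Id genes and the Smads of the Bmp branch were followed in the heads of mouse embryos that lack Arid3b, whose protein contacts AT-rich DNA through the domain that names its family. The members were chosen by gene symbol: Id1, Id2, Id3 and Id4, the signal transducers Smad1, Smad5 and Smad9, the inhibitory Smads Smad6 and Smad7, and Bambi. All 10 have at least 1 probe on the array, and 9 of them were among the 14916 genes tested. Heads with the first branchial arch attached were taken at embryonic day 9.5 from wild type embryos and from embryos null for Arid3b. Each group consisted of 3 pools of RNA from 4 embryos, and each pool was hybridised to 1 Agilent one-colour array, so a value is an average over embryos and over all cell types of the head. The sources do not tell whether pools of a group were from different litters, and p-values therefore cover only the variation among these pools. The labels used here do not say how the null allele was made or which cells lack the protein, and they give no strain.

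Bmp ligands bind receptor kinases that phosphorylate Smad1, Smad5 and Smad9, which enter the nucleus with Smad4 and switch on target genes. The Id genes are the classical targets. Id proteins have a helix-loop-helix but no DNA-binding region, so they tie up the E proteins that neural and other differentiation factors need as partners. Smad6, Smad7 and Bambi are also switched on by the pathway and act back on it: the inhibitory Smads block the receptors and recruit ubiquitin ligases, and Bambi is a receptor decoy without a kinase. In the embryonic head this circuit is known for patterning the dorsal neural tube, the arch mesenchyme and the placodes. Id4 is known for its expression in neural progenitors.

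Signals well above background made up 67.9% to 70.3% of non-control spots per array, and 0 spots were saturated. Arid3b itself was lower on every null array than on any wild type array, at 2.45 ± 0.58 in wild type and 1.26 ± 0.19 in null heads (log2 signal, SD, n = 3 arrays), a fall of 1.19 ± 0.29 with an adjusted p of 0.0266 in limma. The other 2 Arid3b probes fell by 1.37 ± 0.30 and 2.33 ± 0.16, to 38.7% and 19.9% of wild type, where the first was at 43.9%. Every slide carried the wild type array of 1 replicate number in position 1 and the null array of that number in position 2. Genotype and array position therefore cannot be told apart. Differences are also given within each slide. The null heads differed broadly. Of the 14916 genes tested, 23.5% passed an adjusted p of 0.05 (limma, Benjamini-Hochberg), with 12.3% higher and 11.2% lower in null heads. The median difference over all genes was -0.04. Of the genes of the response to low oxygen, 14 of 15 rose, with a median of 2.06, and their part in the results below was not tested.

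Values of the members are log2 signals relative to the 75th percentile of the same array, so they can be compared between arrays for 1 gene but not between genes. Differences are null minus wild type on this log2 scale, ± the standard error from limma. Of the 9 members tested, 2 passed the threshold: Id4 fell and Smad9 rose. That share, 22.2%, is close to the 23.5% of all genes. The arrays of the groups did not overlap for 4 members, Id3, Id4, Smad5 and Smad9, against 42.4% of all genes.

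**Figure D1:**
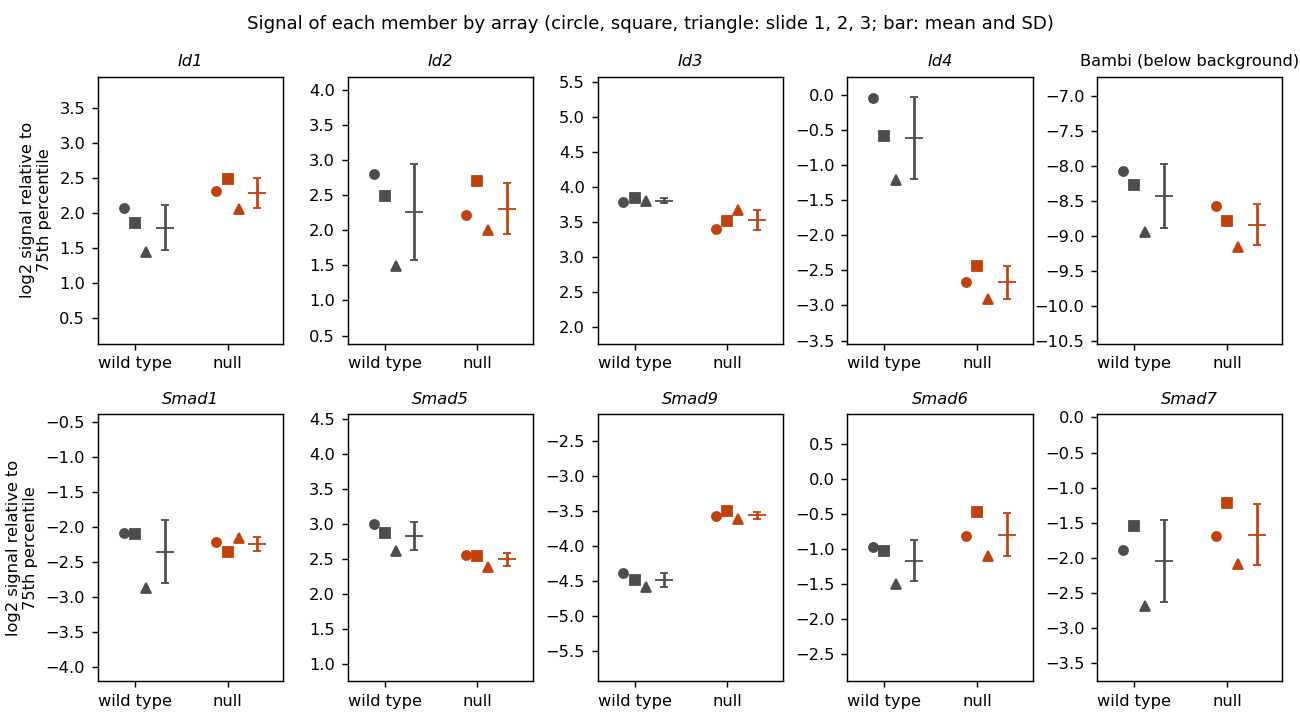
Signal of each member on each array, as log2 relative to the 75th percentile of the array, with wild type in grey and null in orange; circles, squares and triangles are slides 1, 2 and 3, and the bar gives the mean and SD of 3 arrays. Each panel spans the same range but has its own zero. Id4 drops by 2.06 and Smad9 rises by 0.92, while the Bambi probe is not well above background on any array.

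Id4 carried the largest difference among the members. Its log2 signal was -0.04, -0.59 and -1.22 in wild type replicates 1, 2 and 3, and -2.67, -2.43 and -2.91 in null replicates 1, 2 and 3. All null arrays lay below all wild type arrays, and the wild type pools were spread over more than a log2 unit. In processed fluorescence, before scaling, the probe read 662, 475 and 284 in wild type and 109, 116 and 130 in null heads. Id4 fell by 2.06 ± 0.30 (95% interval -2.76 to -1.35), to 24.0% of the wild type level, with an adjusted p of 0.00477 in limma. The difference was -2.63, -1.85 and -1.70 within slides 1, 2 and 3.

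The other Id genes did not pass the test. Id1, the best known Bmp target of the family, was at 2.08, 1.86 and 1.45 in wild type and 2.32, 2.49 and 2.06 in null heads. The null values were the higher ones within each slide, by 0.24, 0.63 and 0.61, but the groups overlapped. The difference of 0.49 ± 0.20 had a 95% interval of 0.01 to 0.97 and an adjusted p of 0.127 in limma. Without wild type replicate 3 it was 0.32. Id2 was at 2.81, 2.49 and 1.49 in wild type and 2.21, 2.71 and 2.01 in null heads. Its values overlapped widely, and wild type replicate 3 alone was low. The difference was 0.05 ± 0.36 (95% interval -0.80 to 0.89, adjusted p 0.941 in limma), and without wild type replicate 3 it was -0.34, so Id2 has no settled direction. The interval corresponds to 0.576 to 1.85 times the wild type level.

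Id3 had the least spread among wild type arrays of the 4 Id genes. Its log2 signal was 3.78, 3.84 and 3.79 in wild type and 3.40, 3.51 and 3.67 in null heads. Every null array lay below every wild type array, by a margin that was small against that of Id4. The difference was -0.28 ± 0.13 (95% interval -0.59 to 0.03) and missed the threshold at an adjusted p of 0.172 in limma. With quantile normalization it was -0.10. Over the 4 Id genes the median difference was -0.11, beside -0.04 for all genes tested. That median has no settled sign: it was 0.06 under normexp, 0.03 with quantile normalization or with the deposited table, 0.02 without wild type replicate 1 and -0.31 without wild type replicate 3.

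**Figure D2:**
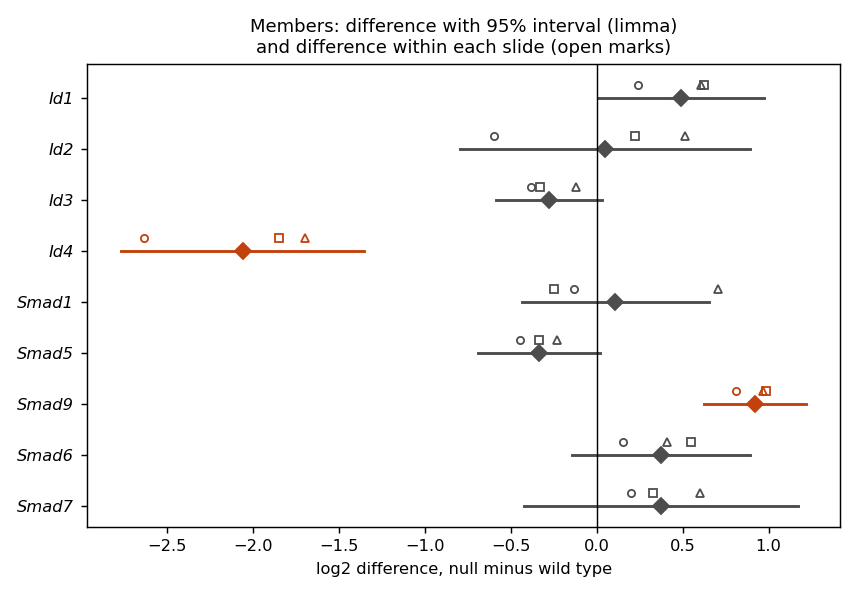
Difference of each tested member, null minus wild type in log2 units (x axis); the diamond is the mean, the line its 95% interval from limma, and the open circle, square and triangle are the differences within slides 1, 2 and 3. Orange marks an adjusted p under 0.05, which only Id4 (-2.06) and Smad9 (0.92) reach; the intervals of Id2 and Smad7 are the widest.

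The gap between Id4 and its relatives was followed within each array, as the log2 signal of Id4 minus that of a paralogue, set to 0 at the wild type mean. It is a description with no test, since Id4 was singled out in advance for standing apart. Against the mean of Id1, Id2 and Id3, the wild type arrays stood at 0.31, -0.08 and -0.22 and the null arrays at -2.08, -2.10 and -2.25. The null arrays had an SD of 0.10 on this measure, and the change was -2.15. Against single paralogues the change was -2.55 for Id1, -2.10 for Id2 and -1.78 for Id3. Id4 minus Id1 was nearly the same on the 3 null arrays, with an SD of 0.03. Within the slides the change against the mean of the paralogues was -2.39, -2.02 and -2.03.

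**Figure D3:**
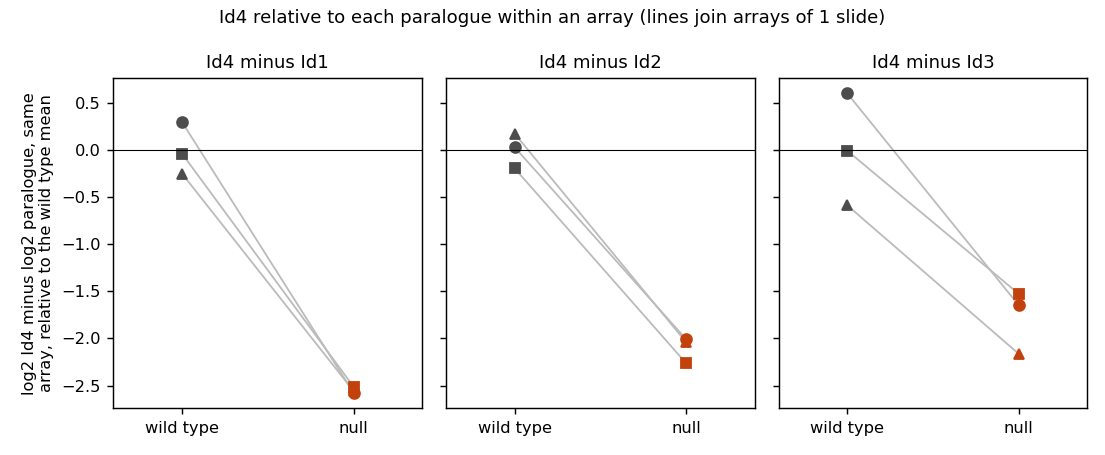
Log2 signal of Id4 minus that of Id1, Id2 or Id3 on the same array, relative to the wild type mean (y axis), for wild type (grey) and null (orange) arrays; lines join the arrays of 1 slide. All 9 lines fall, by between 1.52 and 2.87.

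Markers of the neural lineage, in which Id4 is expressed, moved in the same heads. Of 10 neural progenitor markers, 5 fell and 1 rose, with a median difference of -0.61. Their summed linear signal, relative to the 75th percentile, was 79.4 to 91.6 in wild type and 61.2 to 66.9 in null heads. Hes5, Nes and Otx2, the brightest of them, weigh most in this sum. The difference of Hes5, -0.54 ± 0.19, missed the threshold. Nes, which codes for the intermediate filament nestin, fell by 0.93 ± 0.14, whereas the forebrain and midbrain factor Otx2 rose by 0.57 ± 0.16. Of 10 neuron markers 5 fell, with a median of -0.74, and the summed signal was 11.0 to 14.9 in wild type and 7.52 to 8.90 in null heads. The RNA-binding protein gene Elavl3 fell by 1.27 ± 0.16, the lowest difference of the neuron list. Tubb3 and Nefl, also among its brightest genes, had differences of -0.61 ± 0.23 and -0.26 ± 0.20 that missed the threshold. The part of these markers in the result for Id4 was not tested. Of the other marker lists, arch and crest mesenchyme had 3 of 12 falling and 1 rising with a median of 0.12, primitive erythroid cells 1 of 10 falling with a median of -0.13, and surface ectoderm 0 of 10 past the threshold in limma (4 at an unadjusted p of 0.05) with a median of 0.30. In RNA from whole heads, fewer cells of a type and less RNA per cell cannot be told apart.

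Among 14907 other genes, the 5 whose log2 signals were most like those of Id4 over the 6 arrays were H2bc18, Rab1a, Bud31, Prpf4 and Cerk. The Pearson correlations were 0.998 or more. They describe 6 arrays that fall into 2 groups, and they share the drop between the groups and the array order within them. H2bc18, a histone H2B gene, had a difference of -1.60 and Cerk, a ceramide kinase, one of -0.90. Rab1a, a small GTPase of vesicle traffic, had one of -0.62.

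Promoter sequences of the members were read for letters that Bmp Smads and Arid3 proteins are known to bind. RefSeq windows on GRCm38.p6, 250 bases before to 50 after a start, were available for 7 of the 10 members. Both strands were searched for GGCGCC and GCCGNCGC, known as GC-rich Smad motifs, for GTCTAGAC, a palindromic Smad motif, and for ATTAA, an AT-rich core. Among 32851 promoters of that length these were present in 11.9%, 9.76%, 0.213% and 27.1%. Id4 and Smad9 are shown because they are the members that changed, and Id2 and Id3 as paralogues of Id4 that did not pass the test. Each is the 250 bases before the start, 5′ to 3′ on the gene's strand, with motif matches in capitals.
Id4, chr13:48260866-48261115, plus strand: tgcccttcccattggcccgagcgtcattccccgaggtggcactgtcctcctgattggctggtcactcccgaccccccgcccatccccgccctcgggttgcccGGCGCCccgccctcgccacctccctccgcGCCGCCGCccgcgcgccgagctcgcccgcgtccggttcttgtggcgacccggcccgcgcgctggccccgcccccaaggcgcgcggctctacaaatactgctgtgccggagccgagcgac
Id2, chr12:25096093-25096342, minus strand: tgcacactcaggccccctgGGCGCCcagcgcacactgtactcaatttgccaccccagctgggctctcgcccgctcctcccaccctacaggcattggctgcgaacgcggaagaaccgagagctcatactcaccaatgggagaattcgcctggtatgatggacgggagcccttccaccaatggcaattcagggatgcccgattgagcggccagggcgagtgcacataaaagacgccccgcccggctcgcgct
Id3, chr4:136143572-136143821, plus strand: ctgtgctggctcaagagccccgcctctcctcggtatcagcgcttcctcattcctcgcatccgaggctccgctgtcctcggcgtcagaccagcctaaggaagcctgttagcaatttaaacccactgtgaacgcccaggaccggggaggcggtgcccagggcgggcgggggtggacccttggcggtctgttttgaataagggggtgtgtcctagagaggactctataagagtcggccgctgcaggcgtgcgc
Smad9, chr3:54755332-54755581, plus strand: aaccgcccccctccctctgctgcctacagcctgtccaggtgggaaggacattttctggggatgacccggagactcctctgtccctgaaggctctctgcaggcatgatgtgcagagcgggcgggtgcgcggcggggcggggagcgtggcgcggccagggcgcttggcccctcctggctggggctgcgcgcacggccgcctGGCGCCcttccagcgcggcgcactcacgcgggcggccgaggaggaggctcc

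Id4 held GGCGCC 148 to 143 bases and GCCGNCGC 119 to 112 bases before its start. Id2 held GGCGCC 231 to 226 bases before its start, and Smad9 held it 51 to 46 bases before its own and GCCGNCGC 39 to 46 bases after it, outside the printed stretch. Both GC-rich motifs were also in 2 of the 3 windows of Smad5, GCCGNCGC more than once in each. The window of Id3 held none of the 4 motifs. The stretches of Id4 and Smad9 had a GC content of 75.6% and 73.2%, and those of Id2 and Id3 one of 62.8% each, beside a median of 52.4% over all promoters. Smad6 held the palindrome across its start, shown here because it is the rarest of the 4 motifs and Smad6 is a feedback gene.
Smad6, chr9:64022045-64022074, minus strand: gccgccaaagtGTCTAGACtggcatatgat
ATTAA was in none of the members' windows. A match is a description of these letters and not a bound site. Of the members with a match, Id4 and Smad9 passed the expression test and Id2, Smad5 and Smad6 did not.

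Among the signal transducers, Smad9 rose while Smad1 and Smad5 did not pass the test. Smad9, also known as Smad8, was at -4.39, -4.49 and -4.58 in wild type and -3.57, -3.51 and -3.62 in null heads. The groups were far apart for their spread, and all 6 arrays were well above background although the probe was dim. Its processed fluorescence was 32.5, 31.7 and 27.5 in wild type and 58.1, 55.0 and 79.8 in null heads. Smad9 rose by 0.92 ± 0.13 (95% interval 0.62 to 1.22), or 1.89-fold, with an adjusted p of 0.00408 in limma. The slides gave 0.81, 0.98 and 0.97. With normexp on the median signals, an offset of 50 and quantile scaling together, the rise was 0.41, still past the threshold. With quantile normalization of the processed signals alone it was 0.94. Whether the median signals, normexp or the offset lowered it was not tested.

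Smad1 was at -2.08, -2.10 and -2.87 in wild type and -2.21, -2.35 and -2.16 in null heads. The low value of wild type replicate 3 set its direction: the difference was 0.11 ± 0.23 (adjusted p 0.772 in limma) with that array and -0.15 without it. A second Smad1 probe gave 0.42 ± 0.16 with an adjusted p of 0.123 in a separate limma fit to single probes. On that probe the groups did not overlap. Smad5 was at 3.00, 2.87 and 2.61 in wild type and 2.56, 2.54 and 2.38 in null heads. Its null values were lower on every slide, by 0.44, 0.33 and 0.23, and below every wild type value. The difference of -0.34 ± 0.15 (95% interval -0.69 to 0.02) missed the threshold with an adjusted p of 0.150 in limma. Without wild type replicate 3 the adjusted p was 0.0452. A second Smad5 probe gave -0.20 ± 0.19 with an adjusted p of 0.501 in the same single-probe limma fit.

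Within an array, Smad9 gained 1.04 on the mean of Smad1 and Smad5. The gain was 1.10, 1.27 and 0.73 within the slides. Against Smad5 alone it was 1.26 and against Smad1 alone 0.81. These are descriptions with no test. The median of the 3 transducers was 0.11, and -0.15 without wild type replicate 3. It was 0.26 with the mean of the probes of a gene and 0.42 with the second brightest probe. In each case it is the value of Smad1.

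The feedback inhibitors did not pass the test. Smad6, which acts mainly on Bmp signals, was at -0.98, -1.03 and -1.51 in wild type and -0.82, -0.48 and -1.10 in null heads. The null array was higher on each slide, by 0.16, 0.55 and 0.41, but the groups overlapped. The difference was 0.37 ± 0.22 (adjusted p 0.261 in limma). Smad7, which inhibits both the Bmp and the Tgf-beta branch, was at -1.89, -1.55 and -2.69 in wild type and -1.69, -1.23 and -2.09 in null heads. It too was higher in the null array of each slide, by 0.20, 0.33 and 0.60, with groups that overlapped. The difference was 0.38 ± 0.34 (adjusted p 0.461 in limma). Without wild type replicate 3 it was 0.05 for Smad7 and 0.20 for Smad6, and without null replicate 2 it was 0.15 and 0.21. With array weights it was 0.05 for Smad7 and 0.25 for Smad6. The 95% intervals ran from 0.905 to 1.85 times the wild type level for Smad6 and from 0.746 to 2.25 times for Smad7.

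The Bambi probe was not well above background on any of the 6 arrays. Its processed signal was 1.35 to 2.53, where the lowest signal of a probe well above background was 5.16 to 9.51. No fold is given for it, and nothing is read from it about the receptor decoy. Smad6, Smad7 and Id1 are also expressed in vessels. Of 15 endothelial markers 1 rose, Sox17, named after its value was seen, and 3 had an unadjusted p under 0.05 in limma. The list's median was 0.14. The summed linear signal of the endothelial markers was 34.1 to 37.6 in wild type and 34.6 to 38.0 in null heads. Egfl7, the brightest of them, weighs most in this sum. The part of vessels in the values of Smad6, Smad7 and Id1 was not tested.

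The members shared an order among the arrays that the genotype does not describe. Wild type replicate 3 was the lowest wild type array for 8 of 9 members, all but Id3, and 48.0% of all genes had that order. Smad1 is counted here by its brightest probe. On its second probe that array was the highest of wild type, at -3.27 beside -3.64 and -3.46. Null replicate 3, from the same slide, was the lowest null array for 7 of 9, against 45.2% of all genes. In Id1, Id2, Id4, Smad6, Smad7 and Smad9 null replicate 2 was the highest and null replicate 3 the lowest null array, an order found in 29.3% of all genes. These counts were made after the values were seen and carry no test.

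The genes around the members were described by role. Rose and fell are used of genes past an adjusted p of 0.05 in limma. Of 12 Bmp and Gdf ligands tested 5 rose and 0 fell, with a median of 0.57. Bmp2 was at -2.40, -2.11 and -2.51 in wild type and -0.74, -0.68 and -0.96 in null heads, a rise of 1.55 ± 0.16. Bmp4, a main ligand of the dorsal midline and the arch ectoderm, rose by 0.87 ± 0.13. Bmp5 rose by 0.82 ± 0.20 and Bmp7 by 0.69 ± 0.18. Among receptors and co-receptors 2 of 10 rose. The co-receptor gene Rgma rose by 2.51 ± 0.21 and Acvrl1, a type I receptor of endothelium, by 1.43 ± 0.17. The type I receptor Acvr1 and the co-receptor endoglin (Eng) had differences of 0.41 ± 0.15 and 0.57 ± 0.19 that missed the threshold.

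Proteins that act on the ligands outside the cell went both ways. Of 17 tested, 5 rose and 2 fell, with a median of 0.17. The Bmp antagonist Grem1 rose by 1.11 ± 0.14 and follistatin (Fst), which binds activins and some Bmps, by 0.89 ± 0.13. Sostdc1, an antagonist of Bmp and Wnt signals, rose by 0.66 ± 0.12. Bmp1, which is a protease and no Bmp ligand, fell by 0.90 ± 0.16. None of Smad2, Smad3 and Smad4 passed the test, with differences of -0.42, 0.08 and -0.03. Relative to the mean of Smad3 and Smad4 on the same array, Id4 was at -2.09 and Smad9 at 0.89, close to their values above.

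Inside the cell, 3 of 22 further brakes on Smad signalling rose and 1 fell, with a median of 0.11. Pmepa1, which keeps receptor Smads from their receptor and is itself switched on by Tgf-beta, had the largest change. It was at -2.98, -3.34 and -2.93 in wild type and -5.20, -5.80 and -5.57 in null heads, a fall of 2.44 ± 0.20 with an adjusted p of 0.000917 in limma. Its null signals were dim: the lowest value well above background was -6.65, -6.82 and -7.22 on null arrays 1, 2 and 3. The small phosphatase gene Ctdsp2 rose by 1.24 ± 0.16, the ubiquitin ligase Smurf1 by 0.90 ± 0.17 and its relative Nedd4l by 0.49 ± 0.14. In the Tgf-beta axis 2 of 14 rose and 0 fell, Tgfbi by 0.95 ± 0.14 and the co-receptor Tgfbr3 by 0.88 ± 0.18.

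**Figure D4:**
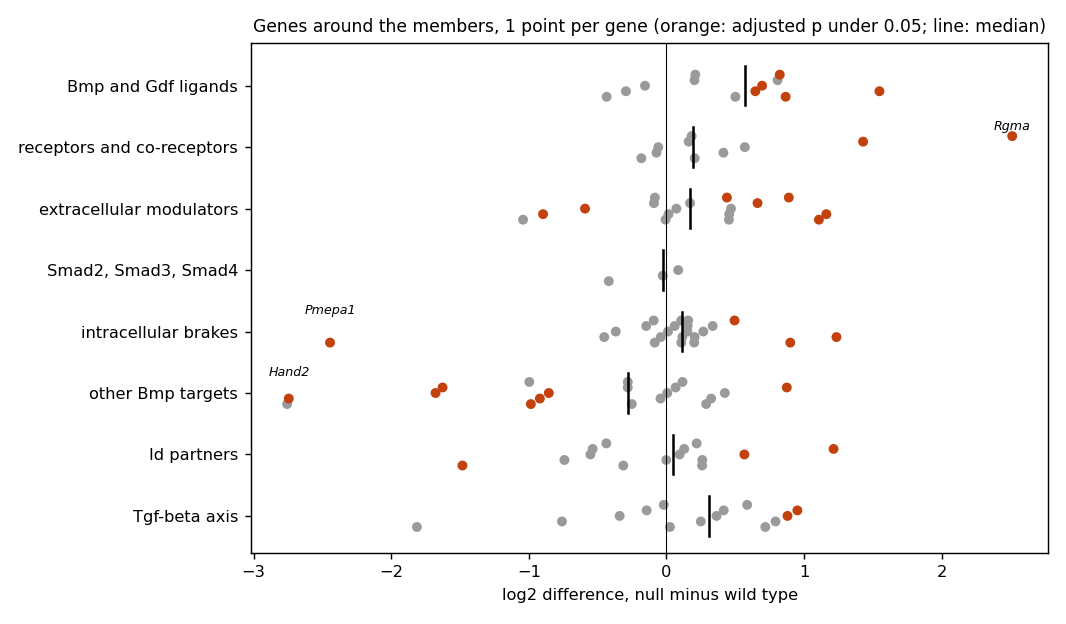
Log2 difference, null minus wild type (x axis), of each tested gene in 8 lists around the members, 1 point per gene; orange points passed an adjusted p of 0.05 in limma and the black line is the median of the list. The median is 0.57 for the ligands and -0.28 for the other Bmp targets, and the genes named in the plot, Rgma, Pmepa1 and Hand2, differ by more than 2.

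Of 19 other genes known as Bmp targets, 6 fell and 1 rose, with a median of -0.28 beside -0.04 for all genes. Hand2, a factor of the ventral arch and the heart, fell by 2.74 ± 0.29, from -0.36, -0.38 and -1.36 in wild type to -3.54, -3.20 and -3.59 in null heads. Prdm16, a transcription regulator of palate and brain, fell by 1.63 ± 0.17, and the cardiac T-box gene Tbx20 by 0.86 ± 0.14. Msx2, a homeobox target of the arch and dorsal midline, was the one that rose, by 0.87 ± 0.19, and is named after its value was seen. Hand2 and Tbx20 are also heart genes. Of 9 heart markers tested, 0 passed the threshold in limma (2 at an unadjusted p of 0.05), with a median of -0.33. Their summed linear signal was 1.48 to 5.51 in wild type and 2.05 to 2.30 in null heads. Actc1, Myh7 and Myl4, the brightest of them, were each highest in wild type replicate 2 among the wild type arrays. The part of heart cells in the falls of Hand2 and Tbx20 was not tested.

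Among partners and downstream genes of the Id proteins, 2 of 14 rose and 1 fell, with a median of 0.05. The E protein genes Tcf3, Tcf4 and Tcf12 did not pass the test, with differences of -0.31 ± 0.19, 0.13 ± 0.18 and 0.22 ± 0.18. Olig2, a helix-loop-helix factor of ventral neural progenitors that Id proteins can bind, fell by 1.48 ± 0.16. The cell cycle inhibitor gene Cdkn1a rose by 1.21 ± 0.25 and Ets1, a factor whose activity Id proteins limit, by 0.57 ± 0.12. The Notch target Hes5 had a difference of -0.54 ± 0.19 that missed the threshold.

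The calls of Id4 and Smad9 were recomputed under 17 other settings. Id4 stayed between -2.36 and -1.46, with adjusted p from 0.000388 to 0.0273 in limma. Smad9 stayed between 0.41 and 0.97, with adjusted p from 0.000684 to 0.0271. Both passed the threshold in each of the 17.

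**Figure D5:**
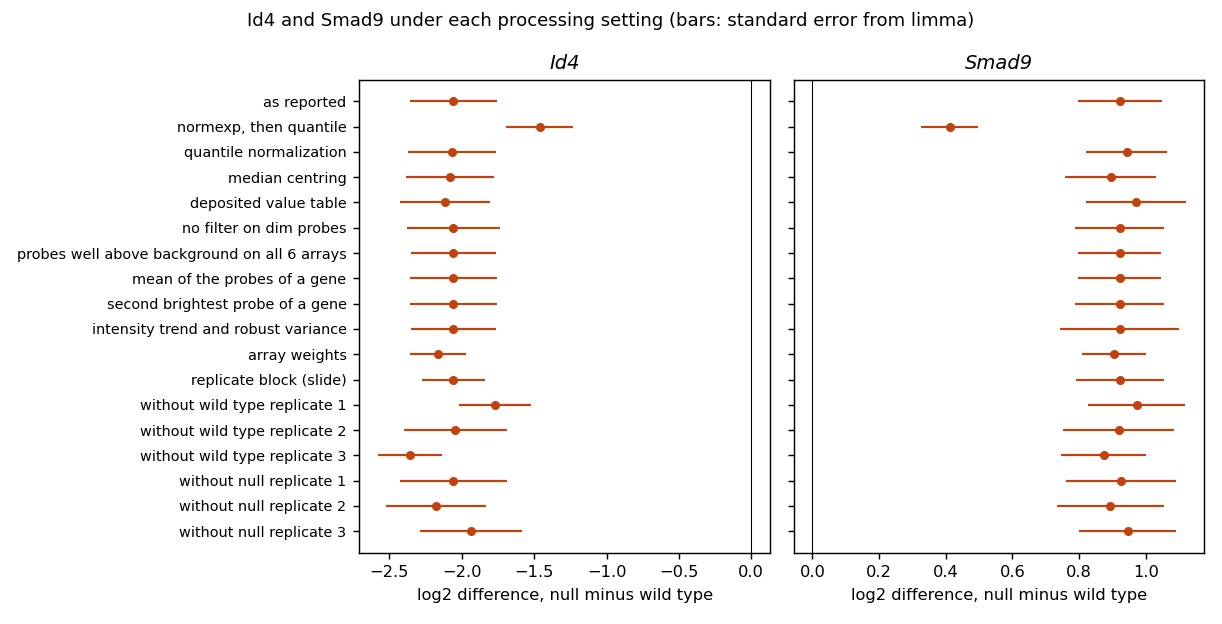
Log2 difference, null minus wild type (x axis), of Id4 and Smad9 under the reported setting and 17 others (rows), with bars for the standard error from limma. Id4 stays below 0, between -2.36 and -1.46, and Smad9 above 0, between 0.41 and 0.97; the value nearest 0 for both is normexp.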

How the data were processed

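Total RNA of 6 pools was amplified with Cy3, per the labels' protocols, and, per the file headers, scans were quantified by Agilent Feature Extraction (version 10.7.3.1). Scanner files as deposited give the intensity of each spot after background subtraction (the processed signal). The authors also deposited a table of log2 values (24181 rows, 24158 of them matched to probes, column medians 6.76 to 6.77). Its making and exact scaling are not stated, and it served as an alternative.

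Values were log2 of the processed signal minus its 75th percentile over non-control spots. Controls and the 84 to 156 outlier spots of an array were dropped. Of 39429 probes, 26424 were named with 1 symbol through RefSeq accessions, 0 had several and 13005 had none. Probes that were well above background in a whole group (3 arrays) and measured on 5 or more arrays were kept (26299, with or without a symbol). Of the kept probes with a symbol, the brightest stood for its gene. Groups were compared with lmFit and eBayes of limma 3.58.1 (R 4.3.3), with p-values adjusted by Benjamini-Hochberg over 14916 genes and a threshold of 0.05. The steps were tested on simulated data. The number of arrays limits precision.

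The members, the 16 gene lists (211 entries, all matched) and the tests were chosen with earlier results of these data known. Named are the members, Arid3b, up to 4 genes of each pathway list with the smallest p, up to 3 of the brightest in each marker list, and the 5 genes most like Id4. Some genes of the rule are not reported here, and Acvr1, Eng, Tcf3, Tcf4, Tcf12 and those marked in the text were chosen after their values were seen. Alternatives were normexp (planned on mean signals, run with an offset of 50 on median signals, which the files hold), quantile and median scaling, the deposited table, other filters and probe rules, variance models, a slide block, thresholds and leaving out each array. The second probes of Smad1 and Smad5 and the scaling to Smad3 and Smad4 were added after seeing the data. Values of these probes, and of the other Arid3b probes, are from a limma fit to all 26299 kept probes, with p adjusted over those probes.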

Additional observations from a re-analysis of the deposited data

How the results depend on the processing

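Under array weights Id1, Id3 and Smad5 also passed the threshold, making 5 of 9 members in place of 2. Of all genes, 44.8% passed with these weights, in place of 23.5%. Id2 and Smad1 turned to -0.21 and -0.080 with them. Leaving out single arrays gave -0.34 to 0.32 for Id2, -0.15 to 0.24 for Smad1 and 0.13 to 0.55 for the median of Smad6 and Smad7. It was Id2 without wild type replicate 3 or null replicate 2, and Smad1 without wild type replicate 3, that turned sign. The gap between Id4 and its paralogues was -1.68 under normexp. The cause of these shifts was not tested. The count of genes changed, 3508, was 2270 with no filter on dim probes, 6687 with array weights, 1273 at an adjusted p of 0.01 and 1467 to 5215 without single arrays. It was 2139 and 2208 without wild type replicates 1 and 2, and 1467, 1840 and 1859 without null replicates 1, 2 and 3. Wild type replicate 3 is the 1 array whose omission raised the count, to 5215. With the replicate block, which is also the slide block, 3693 genes and the same 2 members were called, with adjusted p of 0.00665 for Id4 and 0.0116 for Smad9 in limma. Deviations of same-numbered arrays from their group means correlated at -0.20, 0.15 and 0.42 across genes, so the numbers were not taken as pairs. The block changed no call of a member. Signal over background limits Smad9, whose probe is dim, and leaves Bambi without a value.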
